A study of Mus musculus with 6 samples.

Results

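Solute carriers are the membrane proteins, grouped in numbered SLC families, that move amino acids, sugars, ions, metals, vitamins, nucleotides and metabolic intermediates across the plasma membrane and the membranes of organelles. They were followed here in PA6 cells, the mouse stromal line on which the study lets ES cells differentiate toward endothelium. The array carried 325 gene symbols with an SLC family name, after SLC2A1, SLC16A1 and SLC16A3 had been left out, and 136 of them had a probe whose detection p-value was under 0.05 on both arrays of a group. These 136 symbols are described below, among 11872 genes that passed the same filter. They were chosen by these detection p-values, so the number detected is a description and was not tested. Of the 136, 4 carry an SLC name without being transporters: the scaffold proteins SLC9A3R1 and SLC9A3R2, and SLC4A1AP and SLC7A6OS, which are named after a partner or a neighbouring gene.

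PA6 cells were grown to confluence in 6-well plates and then held for 3 h in serum-free medium that contained no growth factor (-GFs), recombinant FGF2 at 20 ng/ml or recombinant BMP4 at 10 ng/ml. These are the doses in the sample labels, and the methods on the co-cultures give a lower dose of BMP4. Each of the 2 biological replicates consisted of 1 well per condition, and each well was measured on 1 Illumina MouseWG-6 v2.0 BeadChip array, which gives 6 arrays in all. All cells are of 1 established line, cultured here without ES cells, so the values describe the stromal component alone. The level of a gene is the log2 of its cubic spline-normalized intensity, and since probes differ in brightness, levels were compared between arrays and never between genes. A gene was called when its log2 fold change exceeded 1 in either direction with a limma adjusted p under 0.1, the threshold of the study.

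In every cell, the SLC25 carriers exchange metabolites, nucleotides and cofactors between the cytosol and the mitochondrial matrix, whereas the SLC35 carriers bring nucleotide sugars into the Golgi and the endoplasmic reticulum. Families of the plasma membrane take up amino acids (SLC1, SLC6, SLC7, SLC38), sugars (SLC2), ions (SLC4, SLC9, SLC12), zinc (SLC39) and vitamins (SLC19, SLC23, SLC46), and the SLC30 carriers remove zinc from the cytosol. Growth factors such as FGF2 act through receptor tyrosine kinases and BMP4 through SMAD proteins, and transcripts that respond directly to either can change within hours.

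The 6 arrays were alike in brightness and depth of detection. Their median intensities lay between 153.4 and 168.1, and 15509 to 16459 of 45281 probes were detected per array. All 8 stromal markers examined, among them COL1A1, PDGFRB and VIM, were detected on all 6 arrays. Their summed linear intensity was 80153 to 84598 in -GFs medium, 68703 to 70546 with FGF2 and 72806 to 84041 with BMP4, lower on both FGF2 arrays than on both -GFs arrays, and the part of this difference in the results below was not tested. Of the markers of other cells, some were undetected on every array. These were 2 of 4 for ES cells (among them NANOG), 3 of 5 for endothelium (among them PECAM1 and CDH5) and 4 of 5 for blood cells (among them PTPRC). So were 3 of 4 for epithelium (among them KRT8) and all 3 on the array for neurons. However, POU5F1 of ES cells, TEK of endothelium, CD14 of blood cells and CDH1 of epithelium were detected on all 6. KDR of endothelium was detected on 4 arrays and DPPA5 of ES cells on 3. The summed adipocyte markers differed between the replicates, from 896.61 to 4158.3 in -GFs medium, 984.15 to 2995.6 with FGF2 and 925.76 to 3801.9 with BMP4. In bulk RNA, fewer cells of a type and less RNA per cell cannot be told apart.

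The share of symbols detected differed widely among substrate classes. Of 41 SLC25 mitochondrial carriers on the array 28 were detected (68.3%), of 22 carriers of nucleotide sugars and acetyl-CoA 14 (63.6%), and of 32 carriers of metals and haem 20 (62.5%). Lower shares were found for nucleosides, vitamins and lipid precursors (13 of 30, 43.3%), inorganic ions (19 of 52, 36.5%), organic anions and cations (15 of 53, 28.3%), amino acids and amines (18 of 65, 27.7%) and sugars (5 of 26, 19.2%). Over all symbols of the array, 38.5% were detected. Families of organelles and of metals thus had the highest shares, and carriers of sugars and amino acids the lowest.

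**Figure D1:**
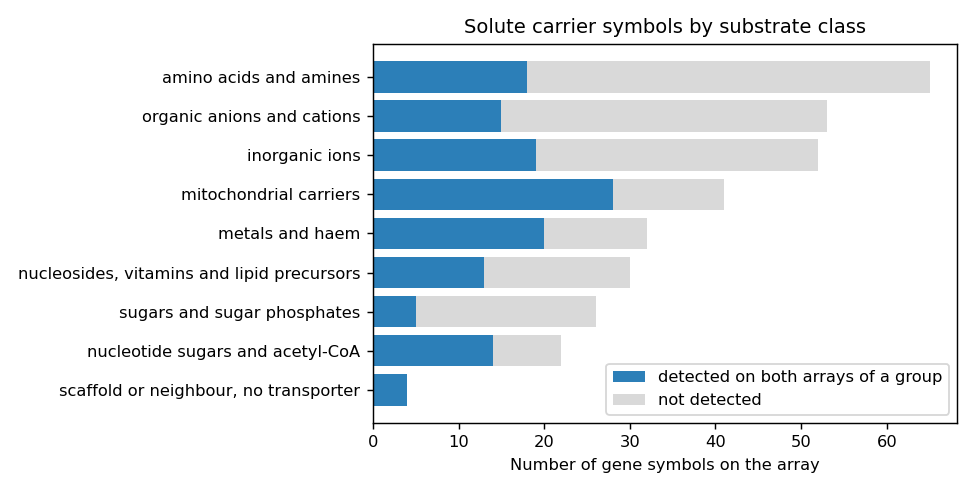
Number of solute carrier symbols on the array in each substrate class, split into those that passed the detection rule (blue) and those not detected (grey). Mitochondrial carriers have 28 of 41 symbols detected and sugar carriers 5 of 26.

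Among the 189 symbols not detected, 150 passed the detection p-value on no array and 39 on at least 1 array. They included, named after their values were seen, SLC40A1 (ferroportin, which exports iron), SLC3A2 (the heavy chain of several amino acid exchangers), SLC7A1 (a transporter of cationic amino acids) and the glucose transporters SLC2A3 and SLC2A4. A symbol counted as not detected had no probe that passed on both arrays of any group. At the threshold, the detection p-value that decided membership was 0.04701 for SLC25A29, 0.04594 for SLC30A8 and 0.03526 for SLC7A3, just inside, and 0.05021 for SLC27A1, 0.05449 for SLC25A34 and 0.05769 for SLC38A1, just outside.

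Detection was shared by the 3 groups for 123 of the 136 members. The other 13 were detected on both arrays of only 1 group (9 symbols) or of 2 groups (4 symbols), and since they passed the filter through the group where they were high, their differences are not a result. They remain in the medians and counts of directions given below for the classes and for all 136 symbols. SLC16A10, SLC30A8 and SLC35E4 were detected on both arrays only with FGF2, SLC24A2, SLC30A4 and SLC7A3 only with BMP4, and SLC16A6, SLC25A29 and SLC2A6 only in -GFs medium. SLC1A6 and SLC30A9 were detected with both factors, SLC22A21 in -GFs medium and with FGF2, and SLC46A1 in -GFs medium and with BMP4. Where neither array of a group detected the probe, a fold was computed as a lower bound, against the mean over that group's arrays of the higher of the probe's own level and the lowest detected level of the array. The largest such bound was that of SLC1A6, a glutamate transporter, 1.22-fold for FGF2 over -GFs medium. This bound rests on the values that let SLC1A6 pass the filter and takes no account of the spread between arrays. The limma interval of its log2 change ran from 0.04 to 0.70 (adjusted p = 0.171). None of the 13 was called.

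Upon FGF2 stimulation, 11 of the 136 symbols (8.09%) were called against -GFs medium, 5 higher and 6 lower, where 3.53% of all genes tested were called (2.28% higher and 1.25% lower). The mitochondrial iron importers SLC25A37 and SLC25A28, the pyrimidine nucleotide carrier SLC25A33, the bicarbonate cotransporter SLC4A7 and the monocarboxylate transporter family member SLC16A13 rose, between 2.03-fold and 2.42-fold. The mitochondrial carriers SLC25A42 and SLC25A45, the lysosomal carrier SLC46A3, the fatty acid transport protein SLC27A3, the choline transporter-like protein SLC44A2 and the scaffold protein SLC9A3R1 fell, to between 0.360 and 0.483 of their -GFs level. All 11 moved the same way in both replicate pairs, and on none of them did the FGF2 arrays overlap the -GFs arrays. Since the call was made on these same arrays, this describes the calls and is not a further test of them. Non-overlap was common in this comparison, since it held for 91 of the 136 symbols (66.9%) and for 53.7% of all genes tested.

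How many of these calls stood depended on single arrays. Without the FGF2 array of replicate 1, 3 members were called (SLC25A42, SLC25A45 and SLC46A3), and without that of replicate 2 again 3 (SLC25A37, SLC27A3 and SLC46A3), so that SLC46A3 alone was called with every array left out. The split into 5 higher and 6 lower became 3 and 8 when the background was corrected with neqc, and 2 and 8 under median scaling.

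**Figure D2:**
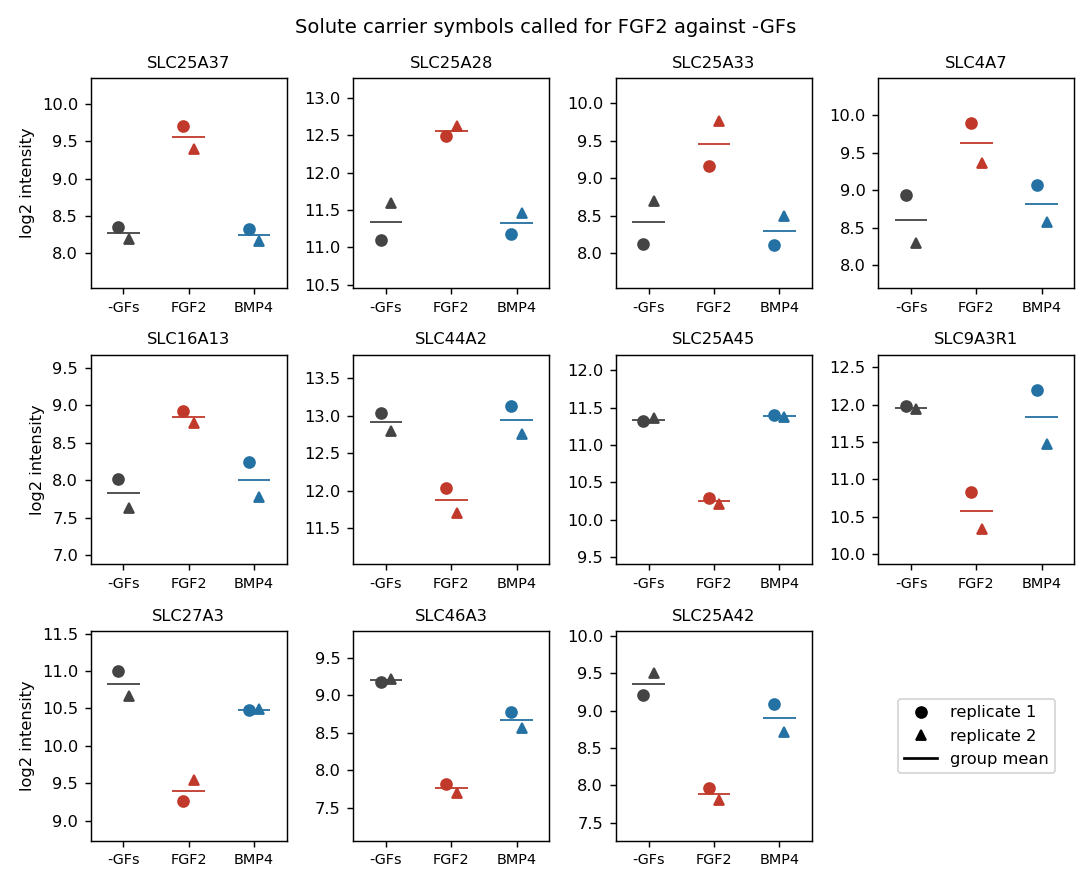
Level of the 11 solute carrier symbols called for FGF2 against -GFs on each of the 6 arrays, as log2 intensity, with circles for replicate 1, triangles for replicate 2 and a line at the group mean. Each panel spans the same range of log2 units, and in each the 2 FGF2 arrays lie apart from the 2 -GFs arrays, as for SLC25A37 at 9.71 and 9.39 against 8.36 and 8.20.

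Where 3.53% of all genes tested were called, mitochondrial carriers accounted for 5 of the 11 calls, among 28 detected. Because they moved in both directions within 1 family, the promoters of the 4 called carriers with a RefSeq entry are shown here, as 300 bases around the start of transcription on GRCm38.p6: Slc25a28 (chr19:43674832-43675131, strand minus), Slc25a33 (chr4:149774218-149774517, strand minus), Slc25a42 (chr8:70212232-70212531, strand minus), Slc25a45 (chr19:5877572-5877871, strand plus). Slc25a28 and Slc25a33 are the genes of carriers that rose and Slc25a42 and Slc25a45 those of carriers that fell. Capitals mark a match to 1 of 6 motifs searched on both strands.
Slc25a28: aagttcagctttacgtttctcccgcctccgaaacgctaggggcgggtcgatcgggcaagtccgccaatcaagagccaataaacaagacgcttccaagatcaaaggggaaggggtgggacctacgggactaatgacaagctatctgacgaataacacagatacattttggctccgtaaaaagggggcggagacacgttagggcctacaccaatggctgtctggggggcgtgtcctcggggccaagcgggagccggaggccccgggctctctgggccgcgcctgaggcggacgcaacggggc
Slc25a33: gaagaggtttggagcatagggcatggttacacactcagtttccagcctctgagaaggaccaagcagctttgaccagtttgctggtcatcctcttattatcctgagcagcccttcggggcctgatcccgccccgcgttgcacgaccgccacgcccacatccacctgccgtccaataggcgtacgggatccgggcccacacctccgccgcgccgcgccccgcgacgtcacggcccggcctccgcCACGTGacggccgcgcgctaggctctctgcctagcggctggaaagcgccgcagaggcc
Slc25a42: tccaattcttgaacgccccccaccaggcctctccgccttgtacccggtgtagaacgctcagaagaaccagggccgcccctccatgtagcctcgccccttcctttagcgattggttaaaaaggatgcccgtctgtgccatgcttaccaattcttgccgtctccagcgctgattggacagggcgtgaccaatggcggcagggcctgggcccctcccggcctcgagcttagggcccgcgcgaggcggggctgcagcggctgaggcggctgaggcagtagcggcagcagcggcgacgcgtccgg
Slc25a45: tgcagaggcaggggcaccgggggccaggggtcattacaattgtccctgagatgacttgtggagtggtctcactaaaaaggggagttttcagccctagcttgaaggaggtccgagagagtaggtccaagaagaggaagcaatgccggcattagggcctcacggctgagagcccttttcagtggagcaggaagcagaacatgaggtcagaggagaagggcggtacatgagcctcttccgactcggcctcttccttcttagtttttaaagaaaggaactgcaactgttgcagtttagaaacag

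The motifs were chosen after the values had been seen. They were the E-box CACGTG, the cAMP response element TGACGTCA, the ETS core CCGGAAGT, the palindromic NRF1 motif, the AP-1 motif TGAGTCA and the EGR motif GCGGGGGCG. Of these 4 promoters, only that of Slc25a33 held a match, to the E-box. This motif was found in 7.15% of the 32851 promoters of the RefSeq table and in 15% of the 140 promoters of the 108 members with an entry. In the same order the shares were 2.91% and 7.14% for EGR, 3.89% and 5.71% for ETS, and 1.79% and 2.14% for the cAMP response element. They were 0.971% and 0% for NRF1 and 5.2% and 0.714% for AP-1. The RefSeq promoters were counted whether or not their gene was detected here, and the differences were not tested. A match of letters is a description of the window and not a binding site. Promoters were found for 108 of the 136 members and for 9 of the 11 called, with no entry for SLC25A37 and SLC16A13, and none of the other 5 called members with an entry held a match to any of the 6 motifs.

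SLC25A37 and SLC25A28, known as mitoferrins, import iron into mitochondria for the synthesis of haem and iron-sulphur clusters. SLC25A37 stood at 8.36 and 8.20 in -GFs medium, 9.71 and 9.39 with FGF2, and 8.33 and 8.17 with BMP4. Both FGF2 arrays were above the other 4 arrays, which lay close together. The group means were 8.28 ± 0.11 in -GFs medium, 9.55 ± 0.23 with FGF2 and 8.25 ± 0.11 with BMP4 (SD, n = 2 each), and the change with FGF2 was 1.28 ± 0.17 on the log2 scale (SE, adjusted p = 0.0138).

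SLC25A28 stood at 11.10 and 11.60 in -GFs medium, 12.49 and 12.62 with FGF2, and 11.18 and 11.46 with BMP4. Here too both FGF2 arrays were the highest, and the -GFs and BMP4 arrays overlapped (FGF2 change 1.21 ± 0.21 on the log2 scale, SE, adjusted p = 0.0261). SLC25A33, which carries pyrimidine nucleotides into the matrix, stood at 8.12 and 8.70 in -GFs medium, 9.16 and 9.76 with FGF2, and 8.11 and 8.49 with BMP4. Replicate 2 exceeded replicate 1 in all 3 conditions, and within each replicate the FGF2 array was the highest (1.05 ± 0.28, adjusted p = 0.0827).

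Of the carriers that fell, SLC25A42 exchanges coenzyme A and adenine nucleotides across the inner membrane. It stood at 9.21 and 9.51 in -GFs medium, 7.96 and 7.81 with FGF2, and 9.09 and 8.72 with BMP4. The FGF2 arrays were the lowest, and the BMP4 arrays lay below the -GFs arrays without reaching the FGF2 arrays (FGF2 change -1.48 ± 0.19 on the log2 scale, SE, adjusted p = 0.0118; BMP4 change -0.46, unadjusted p = 0.0495, adjusted p = 0.999). SLC25A45, another member of the family, was tightly grouped, at 11.32 and 11.36 in -GFs medium, 10.29 and 10.21 with FGF2, and 11.40 and 11.38 with BMP4. Only the FGF2 arrays stood apart (-1.09 ± 0.14, adjusted p = 0.0114).

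Another 3 mitochondrial carriers fell past the adjusted p without reaching the fold of the call. With the called carriers counted, 3 of the 28 rose and 5 fell past it, where 6.03% of all genes rose and 5.78% fell. The 3 short of the fold included the dicarboxylate carrier SLC25A10 (log2 fold change -0.72, adjusted p = 0.0476) and the oxoglutarate carrier SLC25A11 (-0.62, adjusted p = 0.0721). The remaining 20 carriers did not pass the test, with changes such as 0.51 for the ADP/ATP carrier SLC25A5 (adjusted p = 0.173) and -0.37 for the phosphate carrier SLC25A3 (adjusted p = 0.189). SLC25A17, counted in the family, is known as a carrier of peroxisomes. Over the 28 carriers the median change was -0.19, with 10 positive and 18 negative, beside a median of -0.02 over all genes tested. SLC25A29, detected on both arrays only in -GFs medium, is counted here, though its direction is not a result.

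**Figure D3:**
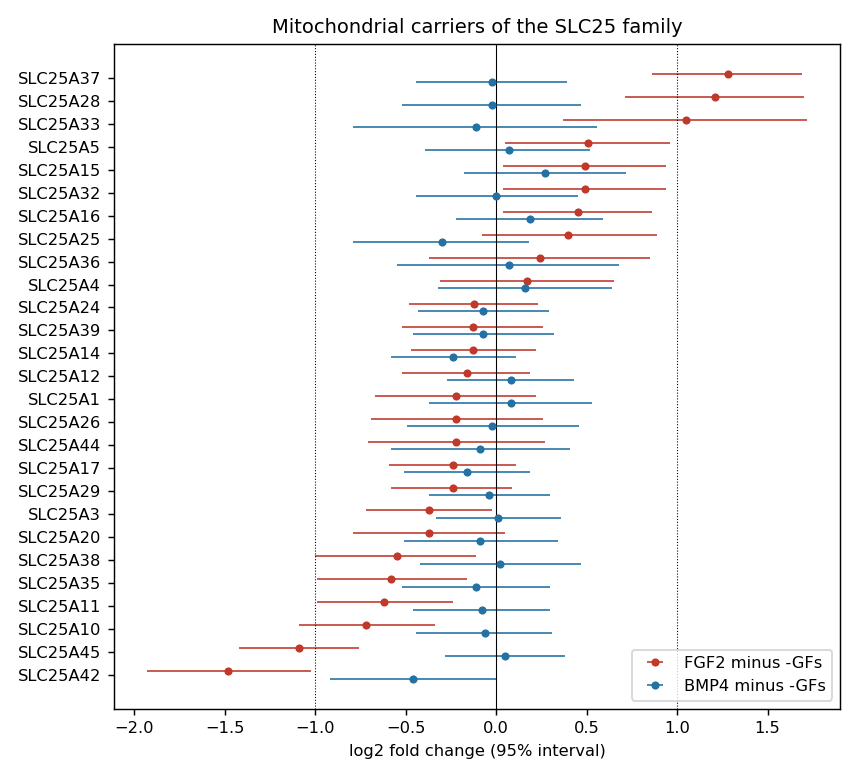
log2 fold change against -GFs medium of 27 of the 28 detected carriers of the SLC25 family, with FGF2 in red and BMP4 in blue, bars giving 95% intervals and dotted lines the fold of the call. With FGF2 the changes run from -1.48 for SLC25A42 to 1.28 for SLC25A37, whereas with BMP4 they run from -0.46 to 0.27.

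The carriers of nucleosides, vitamins and lipid precursors had the lowest median change of any class, -0.47 over 13 members. Of these, 3 were called lower and none higher, where 1.25% of all genes were called lower and 2.28% higher. With the replicate number as a block 1 was called higher. SLC46A3, a carrier of the lysosomal membrane, stood at 9.18 and 9.22 in -GFs medium, 7.82 and 7.69 with FGF2, and 8.78 and 8.56 with BMP4. The 3 groups did not overlap, with BMP4 between the other two. The change with FGF2 was -1.45 ± 0.15 on the log2 scale (SE, adjusted p = 0.00777), the smallest adjusted p among the 136 members. With BMP4 it was -0.53 (unadjusted p = 0.0109, adjusted p = 0.999), and the difference between the factors was -0.91 (adjusted p = 0.0267).

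SLC27A3, an acyl-CoA synthetase of the fatty acid transport protein family, stood at 11.00 and 10.66 in -GFs medium, 9.26 and 9.54 with FGF2, and 10.48 and 10.49 with BMP4. Its FGF2 arrays were more than 1 log2 unit below every -GFs array (-1.43 ± 0.18, SE, adjusted p = 0.0113). SLC44A2, a choline transporter-like protein, stood at 13.04 and 12.80 in -GFs medium, 12.04 and 11.70 with FGF2, and 13.13 and 12.76 with BMP4. It fell with FGF2 (-1.05 ± 0.20, adjusted p = 0.0339), and its second, dimmer probe was undetected on both FGF2 arrays and detected on the other 4. That probe passed the filter through the groups where it was high, so its pattern is not a result. With the mean of the probes, which includes this one, the change of -0.76 was not called. SLC29A3, a nucleoside transporter of lysosomes, and SLC23A2, a sodium-dependent transporter of ascorbate, fell past the adjusted p, by 0.94 (adjusted p = 0.0274) and by 0.72 (adjusted p = 0.0872) on the log2 scale.

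The reduced folate carrier SLC19A1 had the largest positive change of this class and stood at 10.22 and 11.26 in -GFs medium, 11.80 and 12.00 with FGF2, and 10.61 and 11.18 with BMP4. The -GFs arrays differed from each other by about as much as the groups did, and the change of 1.16 ± 0.35 (SE) did not pass (adjusted p = 0.110). With the replicate number as a block it was called (adjusted p = 5.57e-05).

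Among the carriers of inorganic ions, 2 of 19 rose past the adjusted p and 2 fell, where 6.03% of all genes rose and 5.78% fell past it. SLC4A7, which brings sodium and bicarbonate into the cell, stood at 8.93 and 8.29 in -GFs medium, 9.90 and 9.36 with FGF2, and 9.07 and 8.57 with BMP4. Replicate 1 was above replicate 2 in each condition, and the FGF2 array was the highest of its replicate (1.03 ± 0.30, SE, adjusted p = 0.0971). The sodium-potassium-chloride cotransporter SLC12A2 stood at 10.87 and 10.29, 11.60 and 11.50, and 11.19 and 10.55 in the same order and reached 0.97 ± 0.27 (adjusted p = 0.0899), just short of the fold. SLC12A9, of the same family, fell by 0.67 (adjusted p = 0.0846), and SLC24A6, the mitochondrial sodium-calcium exchanger, fell by 0.52 (adjusted p = 0.0878).

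Among 15 carriers of organic anions and cations, SLC16A13 was called, where 3.53% of all genes tested were called. It stood at 8.01 and 7.63 in -GFs medium, 8.92 and 8.76 with FGF2, and 8.24 and 7.77 with BMP4. The FGF2 arrays were the highest and the other groups overlapped (1.02 ± 0.22, SE, adjusted p = 0.0449). A dimmer second probe was detected on both FGF2 arrays but on only 1 array of each other group. It passed the filter only through FGF2, so this pattern is not a result. Its change was 0.71 (limma adjusted p over all probes = 0.132), and with the mean of the probes SLC16A13 was not called. SLC16A9, of the same monocarboxylate family, fell by 0.70 (adjusted p = 0.0728) and SLC22A18 by 0.55 (adjusted p = 0.0899), where 5.78% of all genes fell past the adjusted p. SLC10A6, a carrier of sulphated steroids, stood at 10.03 and 10.68 in -GFs medium, 8.50 and 9.71 with FGF2, and 9.83 and 9.91 with BMP4, and its change of -1.25 ± 0.40 did not pass (adjusted p = 0.120), whereas with the replicate number as a block it was called (adjusted p = 8.93e-05).

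No carrier of metals and haem was called. Without the block, 2 of 20 passed the adjusted p, both higher, where 6.03% of all genes rose and 5.78% fell past it. With the replicate number as a block, 4 passed higher and 4 lower, where 18.1% of all genes passed higher and 19.6% lower. The zinc importer SLC39A6 stood at 11.64 and 11.53 in -GFs medium, 12.39 and 12.11 with FGF2, and 11.76 and 11.77 with BMP4 (0.67 ± 0.16, SE, adjusted p = 0.0606). The magnesium transporter SLC41A2 stood at 9.49 and 9.35, 9.97 and 10.17, and 9.37 and 9.28 in the same order (0.65 ± 0.15, adjusted p = 0.0582). In both, the FGF2 arrays were above all others. Of the 20 members 13 had positive and 7 negative changes, with a median of 0.12. The median was 0.24 with neqc, and 0.05 with 11 positive under median scaling. SLC30A8, detected on both arrays only with FGF2, and SLC30A9, only with the 2 factors, are counted here, though their directions are not a result. SLC11A2, which brings iron into the cytosol, changed by 0.37 (adjusted p = 0.599).

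Among 18 carriers of amino acids and amines 1 passed the adjusted p, where 11.8% of all genes passed it (6.03% higher and 5.78% lower). The creatine transporter SLC6A8 stood at 11.48 and 11.53 in -GFs medium, 10.81 and 10.72 with FGF2, and 11.90 and 11.71 with BMP4. It fell with FGF2 (-0.74 ± 0.15, SE, adjusted p = 0.0383), and since its BMP4 arrays were above the -GFs arrays (0.31, unadjusted p = 0.0788), it was called for FGF2 against BMP4 (-1.05, adjusted p = 0.0171). The glutamate transporter SLC1A3 changed by -0.75 (adjusted p = 0.103) and SLC38A2, a transporter of small neutral amino acids, by -0.68 with an interval from -1.66 to 0.30 (adjusted p = 0.377). The used probe of SLC7A11, which exchanges cystine for glutamate, changed by 0.02 (adjusted p = 0.959) and was detected on only 1 FGF2 array. A dimmer probe, detected on both arrays with FGF2 and on none of the other 4, changed by 0.81 (limma adjusted p over all probes = 0.0295). This dimmer probe passed the filter only through FGF2, so its difference is not a result, and the 2 probes leave the change of SLC7A11 undecided.

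Sugar carriers and nucleotide sugar carriers gave no call and, without the block, no member past the adjusted p. With the replicate number as a block, 3 nucleotide sugar carriers passed higher and 1 sugar carrier lower. Over all genes 18.1% then passed higher and 19.6% lower. All 5 sugar carriers had negative changes, from -0.39 for SLC2A8 (adjusted p = 0.194), an intracellular glucose transporter, to -0.08 for SLC45A4. The 5 include SLC2A6, which was detected on both arrays only in -GFs medium, so that its direction is not a result. Among the 14 carriers of nucleotide sugars and acetyl-CoA the median was 0.04, which became -0.04 under median scaling, and the largest change was 0.75 for SLC35C1, the GDP-fucose transporter of the Golgi (adjusted p = 0.175). Of the 4 symbols that are not transporters, SLC9A3R1 was called. This scaffold, also known as NHERF1, holds transporters and receptors at the membrane, and stood at 11.98 and 11.94 in -GFs medium, 10.83 and 10.34 with FGF2, and 12.19 and 11.48 with BMP4 (-1.37 ± 0.27, SE, adjusted p = 0.0355). Its FGF2 arrays were the lowest, and without the 4 non-transporters 5 of 132 symbols were called higher and 5 lower.

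**Figure D4:**
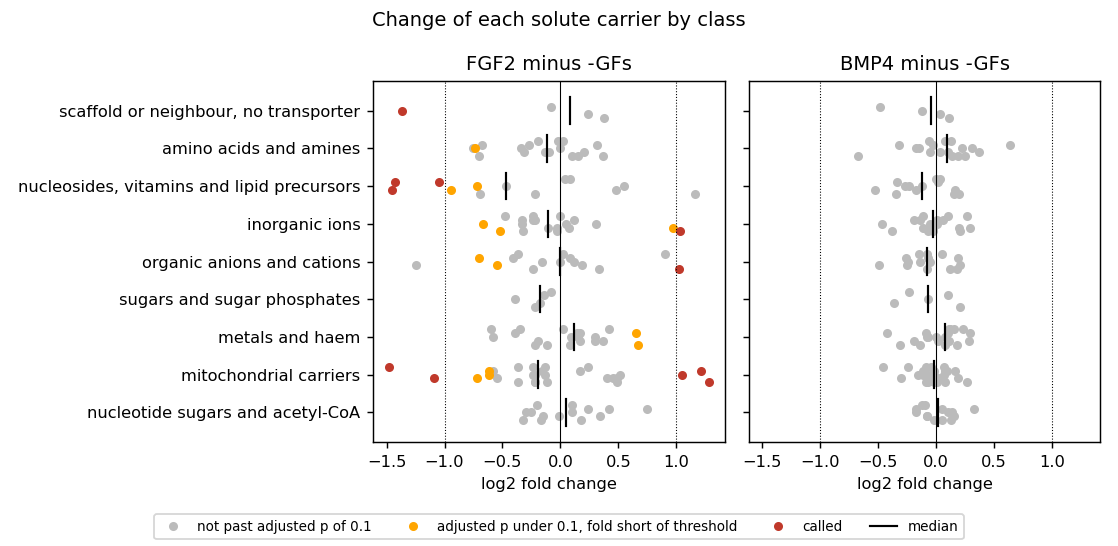
log2 fold change of each of the 136 symbols against -GFs medium by substrate class, with FGF2 on the left and BMP4 on the right. Black ticks are class medians, dotted lines the fold of the call, red points called members and orange points members past the adjusted p alone, all of which are in the FGF2 panel.

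Whatever the fold, 24 of the 136 symbols (17.6%) passed an adjusted p of 0.1 with FGF2, 8 higher and 16 lower, where 11.8% of all genes tested passed (6.03% higher and 5.78% lower). With the replicate number as a block the count rose to 61 (24 higher and 37 lower), where 37.7% of all genes passed (18.1% higher and 19.6% lower), and 13 members were called in place of 11 (3.95% of all genes), by the addition of SLC19A1 and SLC10A6. Without the block it fell to 11 and 10 when -GFs replicate 1 or 2 was left out and to 3 when either FGF2 array was left out, and it split into 4 higher and 20 lower under median scaling. Over the 136 symbols the changes ran from -1.48 to 1.28 with a median of -0.12 and a median size of 0.30, beside a median of -0.02 and a median size of 0.24 over all genes. In 112 of the 136 (82.4%) the direction was the same in both replicate pairs, beside 73.8% of all genes.

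The members with the narrowest intervals included some that changed little. The 5 narrowest intervals for FGF2 were those of SLC22A5, SLC1A6, SLC25A45, SLC8A1 and SLC13A3. SLC8A1, a sodium-calcium exchanger, changed by 0.07 with an interval from -0.26 to 0.40, and SLC13A3, a dicarboxylate transporter, by 0.08 with one from -0.26 to 0.41. SLC13A3, at 7.66 and 7.75 in -GFs medium, and SLC8A1, with a mean level of 8.10, lay near the lowest detected level (7.59 in -GFs medium). A narrow interval at such levels does not show that a change was absent. The carnitine transporter SLC22A5 stood at 9.52 and 9.49, 9.09 and 9.10, and 9.71 and 9.69 in -GFs, FGF2 and BMP4 medium and changed by -0.41 with an interval from -0.74 to -0.09, which did not pass (adjusted p = 0.129). For 102 of the 136 symbols the 95% interval of the FGF2 change lay within 1 log2 unit of 0 on both sides.

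With BMP4, no solute carrier symbol was called and none passed the adjusted p in limma, where 0.00842% of all genes were called. At an unadjusted limma p under 0.05, 6 members passed (4.41%, 1 higher and 5 lower), where 1.81% of all genes did (0.775% higher and 1.04% lower). The methods' t-test at the same unadjusted p, with the fold of the call also required, gave 0. That 0 was fixed beforehand, since the BMP4 changes of the members ran only from -0.67 to 0.64. The 6 were SLC46A3 (-0.53), SLC6A9, a glycine transporter (0.64, unadjusted p = 0.0117), SLC39A13, a zinc transporter (-0.42, unadjusted p = 0.0276), SLC24A6 (-0.38, unadjusted p = 0.0353), SLC12A9 (-0.47, unadjusted p = 0.0375) and SLC25A42 (-0.46), with an adjusted p of 0.999 each. SLC6A9 stood at 10.44 and 10.28 in -GFs medium, 10.49 and 10.86 with FGF2, and 10.88 and 11.12 with BMP4, with both BMP4 arrays the highest.

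Over the 136 symbols the BMP4 changes ran from -0.67 to 0.64, with a median size of 0.12 beside 0.11 over all genes. The lowest was that of SLC43A1, a transporter of large neutral amino acids, which passed only with the replicate number as a block (adjusted p = 0.094), where 0.219% of all genes passed. The BMP4 and -GFs arrays did not overlap for 37 symbols (27.2%), where 24% of all genes did not overlap. For 131 of the 136 the 95% interval lay within 1 log2 unit of 0, which leaves smaller changes undecided.

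Compared directly, FGF2 and BMP4 differed for 9 of the 136 symbols (6.62%), 3 higher and 6 lower with FGF2, where 3.07% of all genes were called (2.03% higher and 1.04% lower). They were SLC25A37 (1.30, adjusted p = 0.0137), SLC25A28 (1.23, adjusted p = 0.0281) and SLC25A33 (1.16, adjusted p = 0.073), higher with FGF2, and SLC25A42, SLC25A45, SLC27A3, SLC44A2, SLC6A8 and SLC9A3R1, lower. Of the 11 symbols called for FGF2 against -GFs medium, 8 were also called here and 10 passed the adjusted p (9.06% of all genes), the exception being SLC4A7 (0.81, adjusted p = 0.179). Both comparisons share the FGF2 arrays. With the replicate number as a block 11 were called (3.51% of all genes), by the addition of SLC14A1 (1.05, adjusted p = 3.08e-05, and 0.214 without the block) and SLC19A1 (2.01-fold, adjusted p = 0.000257, and 0.168 without it). Without FGF2 replicate 1, FGF2 replicate 2 or BMP4 replicate 1 the count was 0, 1 or 2, and with neqc the split was 2 higher and 7 lower.

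Replicates differed in some members whatever the condition. SLC11A2, SLC14A1 and SLC43A1 were higher in replicate 2 than in replicate 1 by more than 0.5 log2 units in each group, for example by 0.80, 0.68 and 1.01 for SLC14A1, a urea transporter, in -GFs, FGF2 and BMP4 medium. The FGF2 change of SLC14A1 was 0.90 ± 0.42 (SE, adjusted p = 0.255), which did not pass.

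Where several probes of a symbol were detected, they did not always agree. Of 46 such members, 12 had probes whose rounded FGF2 changes differed in sign or included a 0. Among them were SLC10A7, SLC25A1, SLC25A24, SLC25A3, SLC26A7, SLC2A10, SLC35A2, SLC35C2, SLC38A2, SLC39A3 and SLC39A7. SLC10A7 and SLC39A7 were counted only through a probe whose change rounded to 0, their other probes being negative. For SLC10A7 that probe was itself slightly lower with FGF2 (0.99654-fold), so its probes did not disagree. None of these 12 was called or passed the adjusted p. SLC38A2 differed most, with -0.68 for the brightest probe and -0.27 and 0.21 for the others.

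Other membrane transport genes were examined beside the solute carriers. Of 52 ABC transporters, which move their substrates with ATP, 24 were detected and none was called with FGF2. Past the adjusted p, 3 of the 24 fell and none rose, where 5.78% of all genes fell and 6.03% rose. Those that fell included ABCA3 (-0.94, adjusted p = 0.023) and ABCB8 (-0.73, adjusted p = 0.0995). Of 22 sodium and proton pump genes 18 were detected, none passed the adjusted p, and their median change was -0.01.

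Among 26 detected partners and regulators of transporters, a list that also holds SLC9A3R1 and was written with earlier results of these data known, 3 rose and 3 fell past the call, where 3.53% of all genes were called. The transferrin receptor TFRC, which takes up iron, stood at 8.34 and 8.46 in -GFs medium, 9.69 and 9.70 with FGF2, and 8.68 and 8.35 with BMP4 (1.29 ± 0.17, SE, adjusted p = 0.0114). The metal-binding metallothionein MT2 stood at 9.02 and 9.33, 10.81 and 11.27, and 9.35 and 9.29 in the same order (1.86 ± 0.20, adjusted p = 0.00839), and ATF4, a transcription factor of amino acid shortage, rose by 1.09 (adjusted p = 0.0322). Of the iron storage proteins in the same list, FTH1 changed by -0.01 and FTL1 by 0.02.

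The members of this list that fell beside SLC9A3R1 were WNK4, a kinase that regulates SLC12 cotransporters, by 1.32 (adjusted p = 0.0274), and TXNIP, an arrestin-like protein that restrains glucose uptake, by 1.12 on the log2 scale (adjusted p = 0.0213). TXNIP stood at 14.26 and 14.56 in -GFs medium, 13.26 and 13.32 with FGF2, and 14.06 and 13.75 with BMP4, lowest on both FGF2 arrays. The kinase SGK1, which acts on several ion and amino acid carriers, rose by 0.78 (adjusted p = 0.0349).

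Across other normalizations, filters and arrays left out, the 11 called symbols kept their direction throughout, and the size of the change varied. Of 17 settings beside the reported one, SLC46A3 was called in 17, SLC25A37, SLC25A42, SLC25A45 and SLC27A3 in 16, SLC25A28 in 14, SLC44A2 and SLC9A3R1 in 13, SLC16A13 and SLC25A33 in 12, and SLC4A7 in 11.

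**Figure D5:**
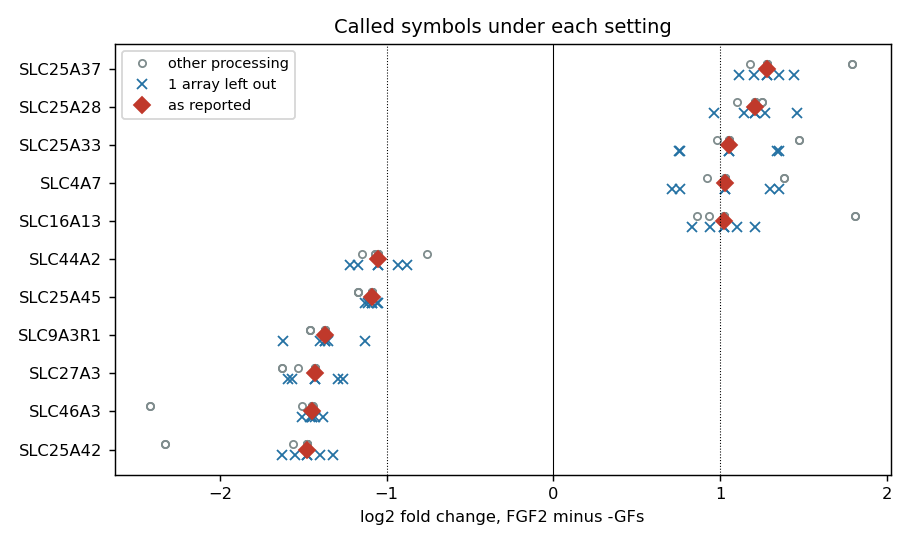
log2 fold change of the 11 called symbols for FGF2 against -GFs as reported (red diamonds), under other processing (open circles) and with 1 array left out (blue crosses), with dotted lines at the fold of the call. All values keep the side of 0, from -2.42 for SLC46A3 to 1.81 for SLC16A13.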

How the data were processed

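Pure cultures of PA6 cells (3 h, 3 groups, 2 replicates) were analysed; co-cultures were not analysed here. The authors deposited linear bead intensities, not normalized between arrays, and detection p-values for 45281 probes; the sources name GenomeStudio 2011.01. The table's 9 columns without heading and 6 leftover lines were not used. A cubic spline normalization, as the methods name it, was written in R 4.3.3 with 452 quantiles per array, followed by log2. The detection rule (p under 0.05 on both arrays of any group) left 16111 probes, and each gene took its probe with the largest mean, which gave 11872 genes. limma 3.58.1 was fitted on all 6 arrays without a block (3 residual degrees of freedom), with Benjamini-Hochberg adjustment over all genes. Exact permutation of 2 against 2 arrays cannot go below p = 0.333. The number of arrays limits the precision.

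The labels pair the replicates (1 well per condition in each), and same-numbered arrays deviated together (r across genes 0.602, 0.741 and 0.579). Named genes were the called members, per class up to 3 largest changes past the adjusted p or the single largest change, the 5 smallest p for BMP4, the 5 narrowest intervals, members not detected in all groups, those at the detection threshold, those with disagreeing probes, and called members of the added lists. Other genes were named after their values were seen. Members and lists were chosen with earlier results of these data known. Symbols are those of the array, 135 of 136 being current RefSeq symbols and 1 a synonym. Promoters are from RefSeq (GRCm38.p6). Values of some members are not reported here. The procedure was tested on simulated data. Alternatives were quantile normalization, neqc, median scaling, other detection filters, the mean of the probes, the replicate block, trend and robust options, each array left out, and the methods' t-test.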

Additional observations from a re-analysis of the deposited data

How the results depend on the processing

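The count of 11 members called for FGF2 against -GFs ranged from 3 to 11 with 1 array left out, that of 9 for FGF2 against BMP4 from 0 to 10, and that of 24 past the adjusted p from 3 to 20. The methods' t-test with Benjamini-Hochberg adjustment gave 0 for each of these. The replicate block gave 61 past the adjusted p, and beside the added calls of SLC19A1 and SLC10A6 for FGF2 against -GFs and of SLC14A1 and SLC19A1 for FGF2 against BMP4 it changed no call of a member. With neqc and the replicate block together, chosen after seeing the data, 18, 16 and 51 passed. Without a detection filter all 325 symbols were tested. For BMP4 the count was 0 in every setting run. The cause of these differences was not tested.

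Changes near 0 of uncalled members turned their sign in some settings, and of all 136 members 57 were positive as reported and 49 under median scaling. Among the members named by the rule, those that turned under median scaling were SLC24A2 (0.00), SLC26A7 (-0.04) and SLC8A1 (0.00), and with the mean of the probes SLC26A7 (-0.09). With 1 array left out the value ranged from -0.08 to 0.07 for SLC10A7, -0.05 to 0.29 for SLC22A21, -0.09 to 0.10 for SLC24A2, -0.30 to 0.41 for SLC26A7, -0.06 to 0.34 for SLC30A4, -0.01 to 0.35 for SLC30A9, -0.39 to 0.00 for SLC35C2 and -0.68 to 0.07 for SLC7A3. Levels near the negative control beads limit what could be seen of the members detected in only some groups.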
